A study of Mus musculus with 4 samples.

Results

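Hedgehog signalling was described through 9 genes, Shh, Ihh, Dhh, Ptch1, Hhip, Smo, Gli1, Gli2 and Gli3, which were taken by exact symbol from a table of 23281 mouse genes. All 9 were listed. The study sequenced RNA from 1 library of respiratory basal cells (RBCs) and 3 libraries of olfactory horizontal basal cells (HBCs). RBCs are the stem cells at the base of the nasal respiratory epithelium. They were microdissected from KRT5-CreER;Ai9-fl(stop)TdTomato mice and sorted as TdTomato+, and the number of animals behind the library is not given in the labels. In this strain a tamoxifen-inducible Cre under the keratin 5 promoter switches on a red reporter, which stays on in the descendants of the marked cells. HBCs are the reserve stem cells of the olfactory epithelium. They came from wildtype mice, were grown in culture to passage 3 and had no sort. Site of origin, culture, strain and sorting therefore all differ between RBCs and HBCs and cannot be told apart. Separate animals or cultures behind the 3 HBC libraries are not stated, so p-values measure only the spread between these libraries, which may be technical.

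Hedgehog proteins are secreted, lipid-modified ligands. Without ligand, the receptor Ptch1 holds the membrane protein Smo inactive, and the Gli transcription factors are held back by Sufu and cut into repressors. When ligand binds Ptch1, Smo enters the primary cilium and Gli proteins become activators. Gli1, Ptch1 and Hhip are themselves transcribed in response in many tissues, so their transcripts are commonly used as readouts of the pathway. Gli2 is the main activator in mouse embryos and Gli3 the main source of repressor.

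All levels are given as depth-scaled FPKM, the deposited fragments per kilobase of transcript after division by 1 factor for each library. Deposited values summed to 9877606 in the RBC library and to between 8377232 and 10855996 in the HBC libraries, and read numbers are not given in these sources. HBC means carry their SD over 3 libraries, and the RBC value has no replicate. Differences were tested with limma across 16438 genes, with variance from the HBC libraries alone. Calling a gene took a limma adjusted p below 0.05 together with a difference of 2-fold or more. By this rule 34.2% of all tested genes (5619) were higher in RBCs and 12.8% (2105) were higher in HBCs. The split was 4302 and 3789 with library medians set equal, and 3049 and 3586 after quantile normalization. Over all tested genes, the log2 change had a median of 0.45. With 1 library against 3, an exact permutation test of a single gene cannot go below p = 0.25.

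The promoters of the genes called below are shown first, because Gli2, Gli3 and Ptch1 are the members on which the results turn. Each is the 250 bases before 1 annotated start, on the gene's own strand, from RefSeq sequence of build GRCm38.p6. They lie at chr1:119053620-119053869 (minus strand, Gli2), chr13:15463473-15463722 (plus strand, Gli3) and chr13:63565736-63565985 (minus strand, Ptch1). Capitals mark the 7-letter core ACCACCC of the site that Gli proteins bind, or its reverse complement GGGTGGT.
Gli2: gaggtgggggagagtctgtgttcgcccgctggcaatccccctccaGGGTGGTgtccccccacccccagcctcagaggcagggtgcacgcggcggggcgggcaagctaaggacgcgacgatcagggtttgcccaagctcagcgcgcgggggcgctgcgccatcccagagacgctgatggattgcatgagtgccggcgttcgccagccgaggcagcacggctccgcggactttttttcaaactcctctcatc
Gli3: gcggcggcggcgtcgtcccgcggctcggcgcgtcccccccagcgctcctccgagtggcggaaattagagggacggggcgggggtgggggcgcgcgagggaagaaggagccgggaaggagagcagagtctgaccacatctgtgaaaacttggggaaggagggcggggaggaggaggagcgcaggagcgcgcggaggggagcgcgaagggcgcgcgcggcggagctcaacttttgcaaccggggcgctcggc
Ptch1: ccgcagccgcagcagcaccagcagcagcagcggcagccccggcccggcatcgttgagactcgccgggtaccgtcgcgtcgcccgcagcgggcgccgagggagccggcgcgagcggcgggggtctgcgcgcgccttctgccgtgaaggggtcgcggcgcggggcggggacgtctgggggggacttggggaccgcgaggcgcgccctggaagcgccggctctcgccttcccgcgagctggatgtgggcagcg
Promoters were at hand for 7 of the 9 members. The 9-letter Gli consensus GACCACCCA, which contains the core, was searched on both strands and was in 0 of these 7, against 0.225% of all 32851 promoters. The core was in 1 of the 7, that of Gli2, where it begins 205 bases before the start on the strand opposite to the gene, against 3.92% of all promoters. GC content of the window was 67.2% for Gli2, 72.8% for Gli3 and 78.4% for Ptch1, and the median over all promoters was 52.4%. A match is a description of letters in this window and not a bound site.

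Of the 9 Hedgehog genes, 3 were called higher in the RBC library, Gli2, Gli3 and Ptch1, and 0 were called higher in HBCs. Another 3, Smo, Dhh and Ihh, were tested and not called. Shh, Gli1 and Hhip fell below the filter on low values (a mean of at least 1 over the RBC value and the HBC mean) and were not tested. Setting the medians equal left 2 members higher in RBCs by this rule, and quantile normalization left 2, with 1 more higher in HBCs. Because the filter admits a gene that is high in either group, and because 34.2% of all tested genes were called higher in RBCs, the count of members is given as a description.

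**Figure D1:**
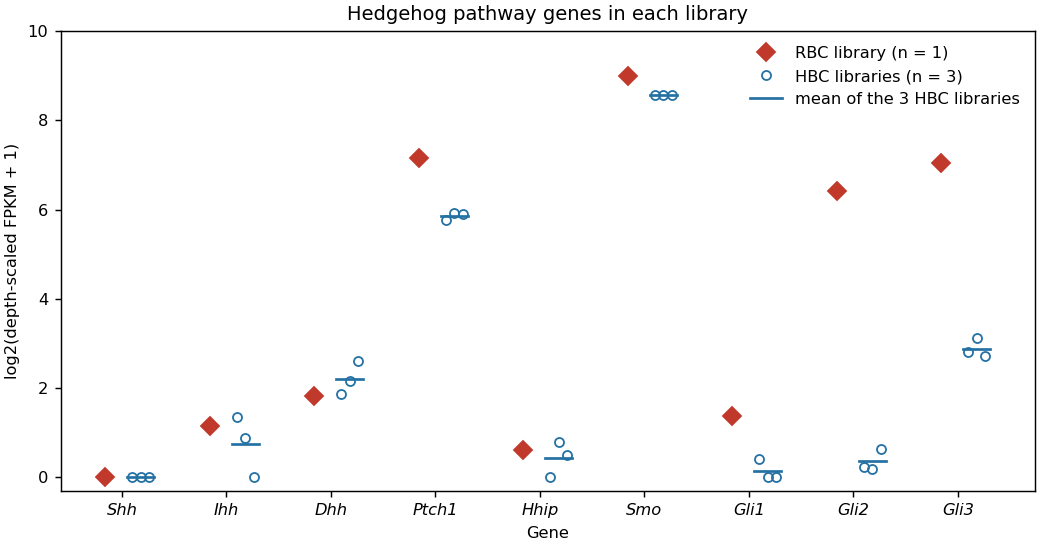
Log2(depth-scaled FPKM + 1) of the 9 Hedgehog genes, with the RBC library as red diamonds, the 3 HBC libraries as open blue circles and bars at the HBC mean. Gli2 and Gli3 show the widest gaps between the RBC library and the HBC libraries, Smo is the highest gene in all 4 libraries, Shh, Ihh, Hhip and Gli1 lie near 0 in both, and Dhh lies low in both, at 2.56 in the RBC library and 2.68 to 5.10 in the HBC libraries before the log.

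The ligand genes were low in both kinds of cell, and none exceeded 5.10 in any library. Shh, the ligand of limb, neural tube and many epithelia, was listed at 0 in the RBC library and in all 3 HBC libraries. Since a 0 in this table may be an estimate that failed, no more than the listing is stated. Ihh, the ligand of growing cartilage and gut, was at 1.24 in the RBC library, against 1.55, 0.830 and 0 in the HBC libraries. The RBC value lay inside the HBC range, and the difference was not called (log2 change 0.42, SE 0.68, limma adjusted p = 0.612). Dhh, the ligand of Schwann cells and testis, was at 2.56 in the RBC library, against 2.68, 3.44 and 5.10 in the HBC libraries. After scaling, the RBC library was the lowest of the 4, just under HBC library 1, although as deposited it lay above that library (2.72 against 2.26). The difference was not called (log2 change -0.38, SE 0.37, limma adjusted p = 0.415). Under quantile normalization Dhh passed the test as higher in HBCs (log2 change -2.50, limma adjusted p = 0.0107, the lowest over the alternatives, where the highest was 0.626).

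These low values sit on a coarse grid. As deposited, before scaling, Ihh stood at 3 steps of 0.436 in the RBC library, and at 3, 2 and 0 steps in HBC libraries 1, 2 and 3, each within 0.06 of a whole step. Dhh stood at 6 steps of 0.452 in the RBC library and at 5, 8 and 12 steps in the HBC libraries. A step has the size that 1 read would give if single reads were worth the same in every library, so differences of a few steps were not detectable at this depth.

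Smo, the transducer that Ptch1 restrains, was the most abundant member in every library. It was at 508 in the RBC library, against 382, 379 and 379 in the HBC libraries. The RBC library lay above all 3 HBC libraries, but the change of 1.34-fold was under the 2-fold minimum (log2 change 0.42, SE 0.01, limma adjusted p = 0.000914). This change was close to the median log2 change of 0.45 of all tested genes, and its sign turned with library medians set equal (log2 change -0.085). Within each library, 86.5% of all listed genes had a lower value than Smo in RBCs, and 81.8% to 81.9% in HBCs.

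Ptch1, the ligand receptor and a transcriptional target of the pathway, was called higher in RBCs. It was at 142 in the RBC library, against 53.7, 59.9 and 58.4 in the HBC libraries. The 3 HBC libraries lay close together (57.3 ± 3.26, SD, n = 3) and well below the RBC library. The difference was 2.48-fold (log2 change 1.30, SE 0.10, limma adjusted p = 0.00417). Relative to the median of all tested genes the log2 change was 0.85, and 33.6% of tested genes had a larger one. The call did not hold with library medians set equal (log2 change 0.80, limma adjusted p = 0.0123) or under quantile normalization (log2 change 0.65, limma adjusted p = 0.0106), and adjusted p ranged from 0.00317 to 0.0403 over the alternatives.

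Hhip, a membrane protein that binds and sequesters Hedgehog ligands, was at 0.519 in the RBC library, against 0, 0.735 and 0.413 in the HBC libraries. The RBC value fell inside the HBC range. Without the filter on low values its log2 change was 0.17 with an SE of 0.41 (limma adjusted p = 0.729).

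Gli2 and Gli3 showed the largest differences among the 9 genes. Gli2 was at 85.2 in the RBC library, against 0.178, 0.143 and 0.564 in the HBC libraries. Those HBC values correspond to 1, 1 and 4 steps of 0.150 as deposited, so no fold is given. All 3 HBC libraries lay near the floor and the RBC library far above them (log2 change 6.07, SE 0.25). Gli2 entered the test only through its RBC value, so its call is a description and no p is given. Of all tested genes, 2.76% had a larger log2 change than Gli2.

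Gli3 was at 132 in the RBC library, against 6.06, 7.70 and 5.58 in the HBC libraries. It was detected in every library, and the lowest and highest HBC values differed far less from each other than from the RBC value. The difference was 20.4-fold (HBC mean 6.45 ± 1.12, SD, n = 3, log2 change 4.17, SE 0.22, limma adjusted p = 0.00237), and 7.68% of tested genes had a larger log2 change. Gli3 remained called higher in RBCs under all 12 alternatives, with log2 changes of 2.84 to 4.34. Gli2 was also higher in RBCs under all 12, with log2 changes of 4.09 to 7.91. Both ends of the Gli2 range came from the pseudocount (4.09 with 5 and 7.91 with 0.1). With HBC values near the floor, its repeated call is a description and not a test.

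Gli1, the Gli gene that depends most on active signalling, was at 1.60 in the RBC library, against 0.335, 0 and 0 in the HBC libraries. The RBC value amounts to 6 steps of 0.283 as deposited and HBC library 1 to 1 step. The RBC library was the highest, but at a level where 69.4% of the genes listed stood at the same value or above it in that library. Gli1 was not tested because of the filter. Without the filter Gli1 was called higher in RBCs (log2 change 1.24, SE 0.25), in a fit on a gene listed at 0 in 2 of 3 HBC libraries.

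Ratios of deposited values between members inside a library are the same whatever factor divides that library, although quantile normalization alters them. Gli2 over Gli3 was 0.647 in the RBC library and 0.0294, 0.0186 and 0.101 in the HBC libraries. Gli3 over Smo was 0.259 in the RBC library and 0.0159, 0.0203 and 0.0147 in the HBC libraries. The RBC library thus lay above the highest HBC library in both ratios. For Gli2 over Gli3, however, the HBC values rest on 1, 1 and 4 steps of Gli2, so this ratio is a description. Ptch1 over Smo was 0.280 in the RBC library and 0.141, 0.158 and 0.154 in the HBC libraries, so the ratio was 1.86-fold higher in the RBC library. After quantile normalization Ptch1 and Smo had log2 changes of 0.65 and 0.49. Gli1 over Ptch1 was 0.0112 in the RBC library and 0.00624, 0 and 0 in the HBC libraries, where each value rests on few steps of Gli1.

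By level per length, the order in the RBC library was Smo, Ptch1, Gli3, Gli2, Dhh, Gli1, Ihh, Hhip and Shh, from 508 down to 0. With 1 library no spread is known for neighbours such as Ptch1 and Gli3 (142 and 132). In the HBC libraries the order of the means was Smo, Ptch1, Gli3, Dhh, Ihh, Hhip, Gli2, Gli1 and Shh (380, 57.3, 6.45, 3.74, 0.793, 0.383, 0.295, 0.112 and 0). After scaling, Smo, Ptch1, Gli3 and Dhh did not overlap over the 3 HBC libraries, although Gli3 reached down to 5.58 and Dhh up to 5.10. As deposited, the ranges of Gli3 and Dhh overlapped, with Gli3 at 5.12 in HBC library 1 and Dhh at 5.45 in HBC library 3. Ihh, Hhip, Gli2 and Gli1 overlapped with one another in the HBC libraries.

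The genes nearest to Ptch1 in pattern were Pcnt, Arhgap26 and Ino80d, at Euclidean distances of 0.0884, 0.0887 and 0.0987 on log2(value + 1) over the 4 libraries. Those nearest to Gli1 were Rgsl1, Themis and 4933413J09Rik, at distances of 0.00613, 0.0668 and 0.0809. With 4 libraries many genes share such a pattern, and near the floor it is set by single steps.

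The other genes of the pathway were read from 6 lists with 75 entries, of which 74 were listed and 69 were tested. Of these 69, 30 were called as higher in RBCs and 2 in HBCs, with a median log2 change of 0.90 against 0.45 over all tested genes. The share called higher in RBCs was 43.5%, against 34.2% of all tested genes. The split was 21 and 6 with library medians set equal and 17 and 6 under quantile normalization.

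**Figure D2:**
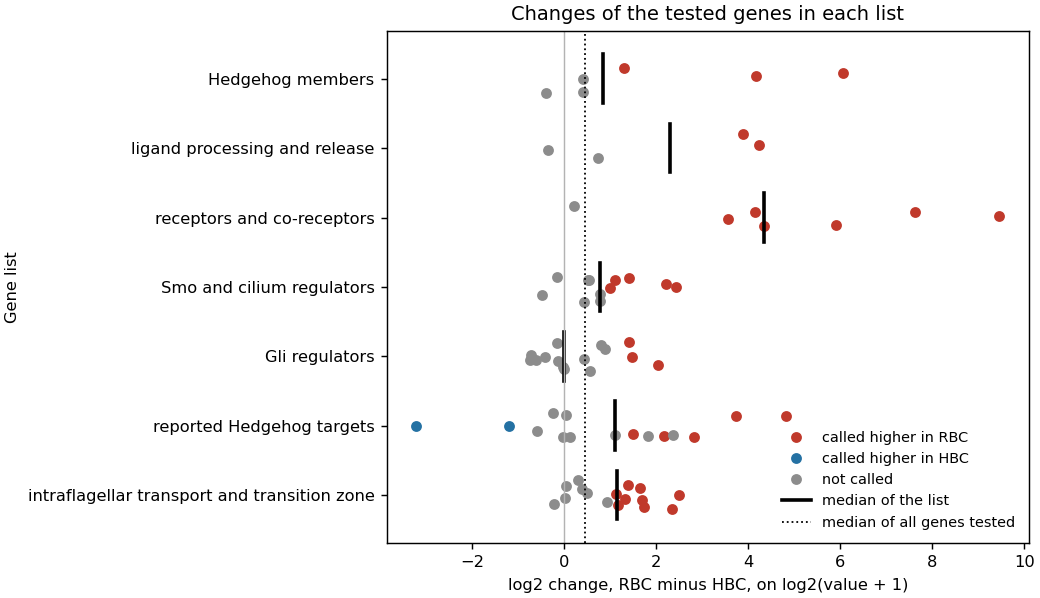
Log2 change (RBC minus HBC) of each tested gene in the Hedgehog members and the 6 lists of other pathway genes, coloured by call, with the list median as a black bar and the median of all tested genes as a dotted line. The receptors and co-receptors lie farthest to the right, with a median of 4.34, and the Gli regulators centre on 0.00.

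Receptors and co-receptors were higher in the RBC library almost throughout. Of 7 tested, 6 were called higher in RBCs and 1, Gpc5, was not called, against 34.2% of all tested genes called higher in RBCs. Boc, Cdon and Gas1 are co-receptors that present ligand to Ptch1. Boc was at 1019 in the RBC library, against 48.0, 67.4 and 55.8 in the HBC libraries, a 17.9-fold difference (limma adjusted p = 0.00277). Cdon was at 474 against 37.8, 39.9 and 39.1 (12.2-fold, limma adjusted p = 0.000308). Gas1 was at 231 against 10.3, 8.58 and 12.9 (21.8-fold, limma adjusted p = 0.00331). All 3 co-receptors were detected in every HBC library, with no overlap with the RBC value. The endocytic receptor Lrp2 was at 224 in the RBC library, against 0.152, 0.122 and 0.120 in the HBC libraries. Gpc3, a glypican that competes with Ptch1 for ligand in mouse, was at 1213 in the RBC library, against 1.68, 0.900 and 0. Both passed the filter only through the RBC value, so no p is given for them.

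Genes that process or release ligand were few and mostly low. Of 7 listed, 4 were tested and 2 were called higher in RBCs, against 34.2% of all tested genes. Scube3, a secreted protein that helps ligand leave the cell, was at 25.9 in the RBC library, against 1.25, 0.335 and 0.991 in the HBC libraries (log2 change 3.89). It too was tested only through its RBC value, and it lost its call under quantile normalization (log2 change 1.61). Hhatl, a relative of the acyltransferase Hhat, was at 17.9 in the RBC library and listed at 0 in all 3 HBC libraries, so its call was fixed by the filter and no p is given. Disp1, the main exporter of lipidated ligand, was listed at 0 in all 4 libraries, and is named after its values were seen.

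The list of Smo and cilium regulators was divided, with 5 of 12 (41.7%) called higher in RBCs and 7 not called, against 34.2% of all tested genes. The number was 2 with equal library medians and 1 after quantile normalization, which also called 1 higher in HBCs. Kif7, the kinesin that organises the ciliary tip, was at 21.1 in the RBC library, against 2.15, 3.02 and 4.46 in the HBC libraries (6.59-fold, limma adjusted p = 0.0197). It was no longer called without HBC library 2, where the log2 change was 2.41 against 2.43 with all libraries (limma adjusted p = 0.0878), and under quantile normalization (log2 change 0.09, limma adjusted p = 0.835), and adjusted p ranged from 0.00905 to 0.835. Evc and Evc2 are partners of Smo at the base of the cilium. Evc was at 97.4 in the RBC library, against 20.0, 20.2 and 20.1 in the HBC libraries (4.85-fold, limma adjusted p = 0.00138). Evc2 was at 161 against 55.1, 65.3 and 59.4 (2.68-fold, limma adjusted p = 0.00619), and its log2 change of 0.91 with equal medians and 0.82 after quantile normalization was under the 2-fold minimum.

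Genes on the list of Gli regulators were mostly not called. Of 15 tested, 3 were called higher in RBCs and 12 were not called, with a median log2 change of 0.00, against 34.2% of all tested genes called higher in RBCs. With equal library medians, 2 passed as higher in RBCs and 3 as higher in HBCs (Csnk1a1, Fbxw11 and Spopl, named after their values were seen). Sufu, the main inhibitor that binds Gli proteins, was at 180 in the RBC library, against 116, 124 and 122 in the HBC libraries. The RBC value lay above all HBC libraries but under the 2-fold minimum (1.49-fold, limma adjusted p = 0.00723). Btrc, which marks phosphorylated Gli proteins for processing, was at 189 against 42.0, 44.7 and 48.6 (4.19-fold, limma adjusted p = 0.00265). Stk36, the mammalian relative of fly Fused, was at 42.9 against 14.0, 14.4 and 15.5 (2.93-fold, limma adjusted p = 0.00419), and its sign turned under quantile normalization (log2 change -0.24). Prkacb, a catalytic subunit of the kinase that primes Gli processing, was at 684 against 249, 257 and 260 (2.68-fold, limma adjusted p = 0.000610), and it fell under the 2-fold minimum with medians set equal (log2 change 0.91).

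Genes reported as Hedgehog targets in other tissues were called about as often as genes in general. Of 15 tested, 5 (33.3%) were called as higher in RBCs, 2 (13.3%) as higher in HBCs, and 8 were not called, against 34.2% and 12.8% of all tested genes. The secreted Wnt inhibitor Sfrp1 was at 3554 in the RBC library, against 130, 110 and 134 in the HBC libraries (28.5-fold, limma adjusted p = 0.000935). The signalling protein Bmp4 was at 71.2 against 5.17, 5.19 and 3.08 (15.9-fold, limma adjusted p = 0.00644). The growth factor Igf2 was at 117 against 15.4, 16.8 and 14.7 (7.48-fold, limma adjusted p = 0.00174). In the other direction, the cell cycle gene Ccnd1 was at 1259 in the RBC library, against 11539, 11475 and 11893 in the HBC libraries, and was thus 9.24-fold higher in HBCs (limma adjusted p = 0.000104). Ccnd2 was at 1880 against 4217, 4393 and 4223, which is 2.28-fold higher in HBCs (limma adjusted p = 0.000891), and it missed the 2-fold minimum under quantile normalization (log2 change -0.84). These genes answer to many other signals, and their change is not a measure of Hedgehog activity.

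Genes of intraflagellar transport and the ciliary transition zone were called higher in RBCs for 9 of 16, with 7 not called, against 34.2% of all tested genes. The number fell to 5 with equal library medians and to 3 after quantile normalization. Mks1 was at 129 in the RBC library, against 17.7, 25.8 and 22.5 in the HBC libraries (5.84-fold, limma adjusted p = 0.00880), and it was not called once HBC library 3 was left out, with log2 changes of 2.53 without it and 2.51 with it (limma adjusted p = 0.0508, the highest over the alternatives, where the lowest was 0.00569). The transport motor Dync2h1 was at 79.1 against 16.6, 12.0 and 16.2 (5.30-fold, limma adjusted p = 0.00896). Tmem67 was at 99.9 against 33.1, 27.2 and 27.7 (3.41-fold, limma adjusted p = 0.00710). Both fell under the 2-fold minimum under quantile normalization (log2 change 0.99 for Dync2h1 and 0.73 for Tmem67). Markers of motile ciliated cells were called higher in RBCs for 12 of 12, with a summed level of 5968 in the RBC library and 205 to 238 in the HBC libraries. The part of motile cilia in the change of these genes was not tested.

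The RBC and HBC libraries differed widely in markers of other cell types. All 12 basal cell markers were at 10 or more in every library, among them Krt5 (26422 in the RBC library and 18579 ± 368 in HBCs, SD, n = 3) and Trp63 (4296 and 545 ± 12.8). Basal cell markers were themselves called higher in RBCs for 9 of 12, with 3 not called. Their sum was 72630 in the RBC library and 27071 to 28232 in the HBC libraries. Of 102 tested markers of 10 other cell types, 83 were called as higher in RBCs and 7 in HBCs. Over all tested genes the shares were 34.2% and 12.8%. Of the 102 markers, 22 were listed at 0 in all HBC libraries, so their calls were fixed by the filter. The same held for 1254 of the 16438 genes tested. Further markers passed the filter only through the RBC value, so the marker counts are a description. Mesenchymal cells such as fibroblasts commonly express Gli2, Gli3, Boc, Cdon and Gas1. Of 12 fibroblast markers, 9 were called as higher in RBCs and 1 in HBCs, with a sum of 7922 in the RBC library and 179 to 196 in the HBC libraries. Most of the RBC sum was Dcn (6885), and the largest part of the HBC sums was Fbln1 (96.9 to 105). The marker called higher in HBCs was Twist1 (6.47 in the RBC library and 16.1 ± 0.755 in HBCs). Prrx1 was lower in the RBC library and not called (9.96 and 12.1 ± 1.38). Col1a1 was at 360 in the RBC library and 1.27 ± 0.264 in HBCs, whereas Pdgfra was at 13.4 and 2.82 ± 0.989. Of 10 smooth muscle and pericyte markers, 8 were called higher in RBCs, with a sum of 2044 in the RBC library and 515 to 570 in the HBC libraries, and Acta2 was at 879 and 1.37 ± 0.337. Most of the HBC sum was Rgs5 (391 to 431), which was not called. Of 10 skeletal markers, 8 were tested and 6 were called higher in RBCs, with sums of 318 and of 140 to 148, while the cartilage gene Col2a1 was at 1.95 and 2.07 ± 0.318 and Matn1 and Comp were listed at 0 in the RBC library. Runx2, which was not called, made up most of the skeletal sum in the HBC libraries (136 to 145). Of 12 glial markers, 11 were tested, 7 were called as higher in RBCs and 2 in HBCs, with sums of 920 and of 404 to 418. Sox10 was at 108 in the RBC library and listed at 0 in all HBC libraries, and Foxd3 was listed at 0 in all 4 libraries. The RBC library was sorted for the reporter of a keratin 5 driver, a gate meant to keep basal cells and their descendants. Which other cells passed this gate was not tested. The part of fibroblasts, muscle, skeletal and glial cells in the Gli2, Gli3, Ptch1 and co-receptor differences was not tested. In bulk RNA, fewer cells of a type cannot be told apart from less RNA per cell.

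Most markers of leukocytes, neurons and other epithelial cells were also higher in the RBC library, against 34.2% of all tested genes called higher in RBCs. Leukocyte markers summed to 15077 in the RBC library and 514 to 589 in the HBC libraries, with 9 of 12 called as higher in RBCs and 1 in HBCs, although Ptprc, the pan-leukocyte gene, was only at 10.5 in the RBC library and 0.248 ± 0.215 in HBCs. Most of the leukocyte sum was Lyz2 in the RBC library (14733) and Cd68 in the HBC libraries (477 to 560), and without both genes the sums were 278 in the RBC library and 10.4 to 15.1 in the HBC libraries. Endothelial markers summed to 119 and 87.6 to 140, with 8 of 10 called as higher in RBCs and 1 in HBCs, and Pecam1 was at 12.1 and 0.405 ± 0.350. Most of the endothelial sum in HBCs was Egfl7, and without it the sums were 100.2 in the RBC library and 1.89 to 3.30 in the HBC libraries. Sensory neuron markers summed to 5655 and 202 to 240, with 9 of 10 called higher in RBCs, and Omp was at 1497 and 63.3 ± 1.94. Secretory and gland markers summed to 538598 in the RBC library and 139364 to 141903 in the HBC libraries, with 7 of 9 called as higher in RBCs and 2 in HBCs. Most of the secretory sum was Bpifa1 in the RBC library (438313) and Ltf in the HBC libraries (117964 to 120174). Sustentacular markers summed to 227106 and 41653 to 44035, with 8 of 8 called higher in RBCs. Most of the sustentacular sum was Cbr2 in every library (212906 in the RBC library and 41180.5 to 43545.8 in the HBC libraries). Foxj1, the regulator of motile cilia, was at 722 in the RBC library and 69.3 ± 3.51 in HBCs.

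**Figure D3:**
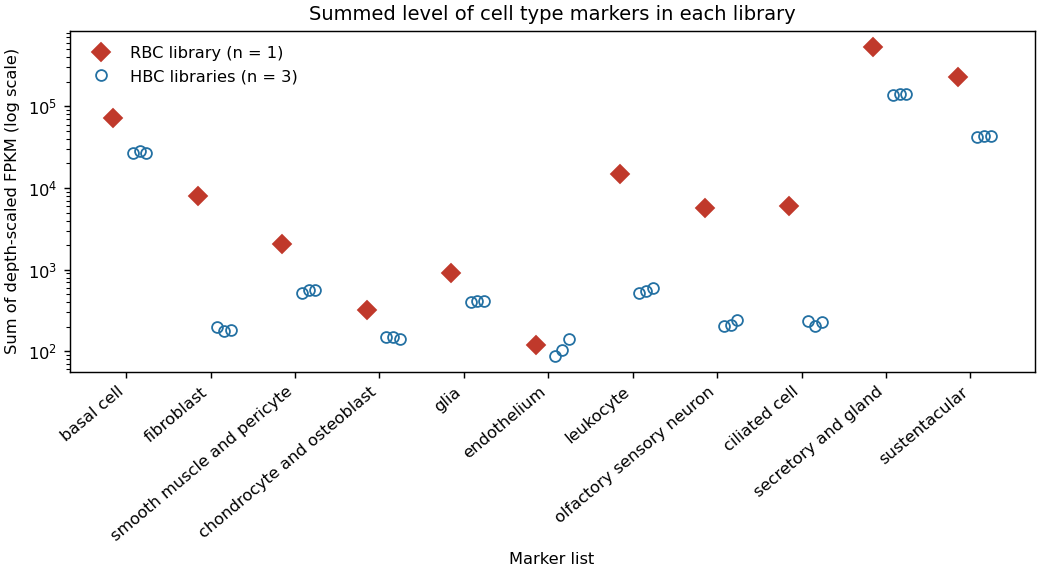
Summed depth-scaled FPKM (log axis) of 11 cell type marker lists in the RBC library (red diamonds) and the 3 HBC libraries (open blue circles). Fibroblast, leukocyte, neuron and ciliated lists stand far higher in the RBC library, while the endothelial sum of the RBC library lies inside the range of the HBC libraries, where Egfl7 makes up most of it. Dcn and Lyz2 make up most of the fibroblast and leukocyte sums in the RBC library.

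The changes of the tested members under each processing choice are drawn together, since the calls of Ptch1 and Dhh changed with scaling and those of Gli2 and Gli3 did not.

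**Figure D4:**
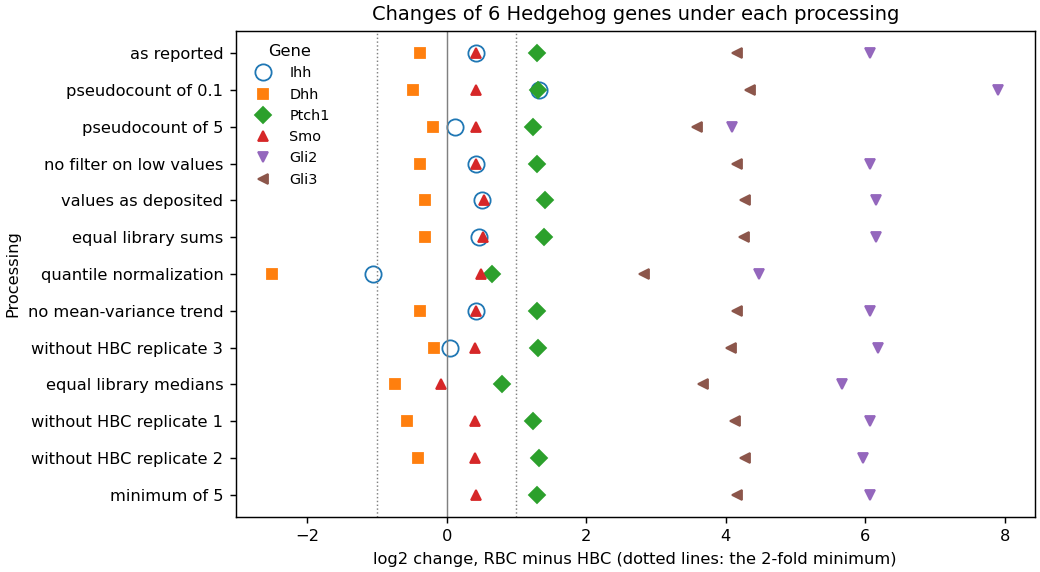
Log2 change (RBC minus HBC) of the 6 tested Hedgehog genes, 1 row for each processing, with dotted lines at the 2-fold minimum. Gli2 and Gli3 stay to the right of that minimum in every row, Ptch1 crosses it with equal library medians and under quantile normalization, and Smo stays inside it. Under quantile normalization Dhh (-2.50, called) and Ihh (-1.05, not called) lie beyond it on the HBC side. With a pseudocount of 0.1, Ihh lies beyond it on the RBC side (1.32, not called).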

How the data were processed

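RNA of 1 RBC library and 3 HBC libraries was prepared with a column kit and Illumina libraries, per the labels' protocols. Tools were Cufflinks 2.2.1, Cuffnorm and STAR, with genome build mm9, per the submitters' processing notes. For annotation and strand setting, the sources used here give nothing. The authors deposited FPKM values, 1 column per library. Among genes under 4 in every library, the 2 values of a library pair were within 2% of each other for 12.4% to 26.0% of genes above 0 in both (6 pairs), so library depth appeared to remain in the values. They were therefore divided by library factors, each the median of a library's ratios to the geometric mean, from 11134 genes that reached 10 in every library (1.06 for the RBC library and 0.845, 1.05 and 1.07 for HBC libraries 1, 2 and 3).

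Genes with a mean of at least 1 over the RBC value and the HBC mean were tested as log2(value + 1) with limma 3.58.1 in R 4.3.3 (trend, two-sided, Benjamini-Hochberg, 2 residual degrees of freedom). The test assumes that the lone RBC library varies as the HBC libraries do. This scale understates changes of low genes. Printed folds are ratios of scaled values. No fold is given where an HBC library is below 1. All 1254 tested genes listed at 0 in all HBC libraries were called, and this is no test. The procedure was tested on simulated data.

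The members and the gene lists were chosen with earlier results of these data known. All 9 members are named. Of the other pathway genes, Sufu, Gas1, Cdon, Boc and up to 3 called genes per list and direction with the largest log2 change are named, as are the 3 genes nearest in pattern to Ptch1 and to Gli1, and defining cell type markers. Markers named beyond these were chosen after their values were seen. Some genes that this rule covers are not reported here. Dnah5 and Mcidas were matched by an older symbol and Mosmo was not matched. Promoters were matched by symbol to RefSeq sequences.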

Additional observations from a re-analysis of the deposited data

How the results depend on the processing

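Under 12 alternatives (2 other pseudocounts, 2 other filters, 4 other scalings, no mean-variance trend and each HBC library left out), Gli2 and Gli3 kept their direction and call. For Gli2 this is a description, since it entered the test only through its RBC value. Quantile normalization gave 3049 genes called as higher in RBCs and 3586 in HBCs, 17 and 6 of the other pathway genes, 1 member higher in HBCs (Dhh) and a log2 change of -1.05 for Ihh. Equal library medians gave 3789 genes and 6 other pathway genes called higher in HBCs, and a log2 change of -0.085 for Smo. The cause was not tested. Over all tested genes the median log2 change was 0.56 with values as deposited, 0.55 with equal sums, -0.08 with equal medians and -0.13 under quantile normalization. Without 1 HBC library the count of members called higher in RBCs stayed at 3, and other pathway genes numbered 28 to 30. No paired analysis was possible because nothing in the labels links the RBC library to any HBC library. For Ihh, Dhh, Hhip and Gli1, values of a few steps limit what can be seen at this depth.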
